A study of Arabidopsis thaliana with 20 samples.

Results

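Histone genes of Arabidopsis thaliana were followed through a shift to high light in Col-0 and ilp1-1 leaves. The genes are the rows whose description in the deposited tables starts with Histone H1, H2A, H2B, H3 or H4. This gave 40 of 33104 rows. Of these, 37 encode histones (2 H1, 6 H2A, 9 H2B, 12 H3 and 8 H4 genes), and 3 have a description that names an enzyme acting on histones, so they were kept apart. A further 12 histone genes, described in other words in the tables (for example as probable histones), lie outside the rule and are given only beside their variant. Of the 37 histone genes, 34 reached 1 FPKM in at least 2 libraries and were tested. FPKM counts fragments per gene length and per library. The deposited values divide each library by a denominator of 0.889 to 1.18 times its reads, in proportion to its median-of-ratios size factor and not to its read total. Levels of different genes can be compared per length within a library. The 3 genes that were not tested were AT5G02570 (H2B.9, 0 FPKM in all 20 libraries), AT1G08170 (H2B.2, at most 0.471 FPKM) and AT5G12910 (H3-like 4, at most 0.475 FPKM).

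RNA of whole leaves of 4-week-old plants was sequenced in 20 poly-A libraries, 2 for each of 10 groups. Col-0 is the wild-type accession and ilp1-1 is an allele of ILP1 (AT5G08550), and no other allele is named in the labels. Plants of both genotypes grew with 10 h light and 14 h dark and were sampled after 2 h of normal light at 100 µmol photons m-2 s-1 (0 h), and after 4, 8 or 16 h of continuous high light at 500 µmol photons m-2 s-1. The last group, called 30 h here, had 24 h of high light and then 6 h of normal light. From 0 to 16 h, the hours in high light and the time of day move together in this design. They cannot be told apart, as later hours without high light were not analysed here. The 16 h samples fell in what had been the dark period. The 30 h samples fell at an hour of day between those of 4 and 8 h, but after the return to normal light. Whether replicate libraries stem from different plants is not stated in the labels, so each p-value reflects the spread between libraries, which may be technical. ILP1 had levels of 2.63 and 3.88 FPKM at 0 h, 3.32 and 2.91 at 4 h, 3.16 and 3.49 at 8 h, 3.37 and 3.45 at 16 h and 2.66 and 3.05 at 30 h in Col-0. Under the ilp1-1 label it had 7.17 and 8.90 FPKM at 0 h, 4.67 and 5.03 at 4 h, 4.79 and 5.19 at 8 h, 4.32 and 2.72 at 16 h and 3.33 and 3.02 at 30 h. It was thus higher, not lower, under that label at 0 h, by 1.09 (SE 0.18, adjusted p = 3.81e-04) on the log2 scale, a call lost with the 0 h libraries alone (adjusted p = 0.0524, range over the alternatives 6.44e-06 to 0.0524). The labels do not describe the lesion, so this level is no check of it, and ilp1-1 means "labelled ilp1-1" throughout.

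Histones package DNA: an octamer of H2A, H2B, H3 and H4 forms the nucleosome core, and H1 binds the linker DNA between cores. Replication-type genes (H3.1, H4 and most H2A and H2B genes) supply new nucleosomes when DNA is copied, whereas variants such as H3.3 and H2A.Z are also placed in chromatin outside DNA replication, H2A.W marks heterochromatin, and H2A.X is the form phosphorylated at DNA breaks. In plants the mRNA of replication-type histones carries a poly-A tail, so a poly-A library captures it. Leaves also copy DNA without dividing (endoreduplication), and ILP1 is known both as a gene whose altered activity changes leaf ploidy and as a factor that acts in pre-mRNA splicing. In bulk leaf RNA, a smaller share of cells that express a gene and less RNA in each such cell cannot be told apart.

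The sequences of 5 promoters are shown because their genes behaved differently. The first 3 belong to genes that rose in Col-0 and fell in ilp1-1 (an H3.1, an H4 and an H2B gene), the fourth to an H2B gene that rose in both genotypes, and the last to an H3.3 gene that fell in both. Each runs 5′ to 3′ from 250 bases before to 50 bases after the gene start, from the RefSeq assembly TAIR10.1, and capitals mark the letters of the motifs searched (the octamer CGCGGATC, the hexamer ACGTCA and the E2F forms TTTCCCGC, TTTGCCGC, TTTGGCGC and TTTCGCGC, on both strands). They lie at chr1:2972285-2972584 (minus strand), chr5:24051224-24051523 (plus strand), chr5:7652665-7652964 (minus strand), chr2:12326558-12326857 (plus strand) and chr4:18558896-18559195 (minus strand).
AT1G09200 (H3.1): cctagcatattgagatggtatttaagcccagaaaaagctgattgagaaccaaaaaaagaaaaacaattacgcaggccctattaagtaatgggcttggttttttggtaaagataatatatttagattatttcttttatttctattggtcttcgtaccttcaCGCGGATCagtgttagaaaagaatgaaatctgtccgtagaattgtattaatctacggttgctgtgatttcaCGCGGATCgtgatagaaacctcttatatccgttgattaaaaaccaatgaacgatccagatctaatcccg
AT5G59690 (H4): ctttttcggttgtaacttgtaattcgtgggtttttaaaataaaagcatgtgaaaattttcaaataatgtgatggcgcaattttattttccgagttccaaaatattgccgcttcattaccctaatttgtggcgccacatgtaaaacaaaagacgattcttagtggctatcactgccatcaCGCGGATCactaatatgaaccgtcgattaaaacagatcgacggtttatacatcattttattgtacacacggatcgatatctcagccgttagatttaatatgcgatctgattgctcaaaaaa
AT5G22880 (HTB2, H2B): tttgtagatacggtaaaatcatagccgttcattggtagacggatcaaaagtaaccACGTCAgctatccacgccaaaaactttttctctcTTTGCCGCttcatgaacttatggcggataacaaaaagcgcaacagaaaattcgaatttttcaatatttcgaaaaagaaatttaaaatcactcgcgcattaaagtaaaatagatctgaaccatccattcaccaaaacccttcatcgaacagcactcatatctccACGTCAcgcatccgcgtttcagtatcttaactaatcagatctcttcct
AT2G28720 (H2B.3): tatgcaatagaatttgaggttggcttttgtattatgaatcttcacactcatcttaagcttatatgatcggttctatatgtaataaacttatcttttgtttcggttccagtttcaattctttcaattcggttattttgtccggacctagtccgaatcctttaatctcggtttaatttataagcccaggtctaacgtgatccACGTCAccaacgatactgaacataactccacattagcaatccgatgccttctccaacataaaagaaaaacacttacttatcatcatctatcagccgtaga
AT4G40040 (H3.3): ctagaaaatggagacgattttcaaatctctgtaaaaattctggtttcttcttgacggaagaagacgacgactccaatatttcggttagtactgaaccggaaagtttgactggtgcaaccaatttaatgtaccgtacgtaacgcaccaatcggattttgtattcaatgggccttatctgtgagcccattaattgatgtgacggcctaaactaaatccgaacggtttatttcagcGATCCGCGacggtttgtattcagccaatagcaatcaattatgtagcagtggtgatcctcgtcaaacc

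The octamer was found in 7 of the 37 histone promoters and in 40 of all 27419 promoters of nuclear protein-coding genes, which is 18.9% against 0.146%. Its 7 holders were 3 H3.1 genes (AT1G09200 with 2 copies, AT5G10400 and AT5G65360), the H4 genes AT1G07660 and AT5G59690, the H3.3 gene AT4G40040 and the H1.1 gene AT1G06760. The hexamer was found in 11 of 37 promoters (29.7% against 9.19% of all promoters), among them 7 of the 9 H2B promoters. An E2F form was found in 3 of 37 (8.11% against 1.76%), namely AT5G22880 and the H4 genes AT3G45930 and AT3G46320. No matches overlapped in these promoters. The octamer thus stands both before genes that rose in Col-0 and fell in ilp1-1 (4 of 15 by the test at 8 h) and before others that were tested (3 of 19). A match is a string of letters and was not tested as a binding site.

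At the level of whole classes, H3.1, H4 and H2B mRNA was higher in Col-0 and lower in ilp1-1 after 4 and 8 h of high light than at 0 h, while H1 and H3.3 mRNA was lower in both genotypes. The summed level of the 5 H3.1 genes stood at 329.6 and 323 FPKM at 0 h, 456 and 515 at 4 h, 499.8 and 495 at 8 h, 506 and 469 at 16 h and 607 and 640.1 at 30 h in Col-0. In ilp1-1 it stood at 466 and 486 FPKM at 0 h, 355 and 338 at 4 h, 302 and 307 at 8 h, 433 and 466 at 16 h and 622 and 509 at 30 h. The ilp1-1 libraries were thus the higher ones at 0 h and the lower ones at 4, 8 and 16 h, and the genotypes overlapped at 30 h. The order at 16 h depends on the scaling. With libraries scaled by total reads, the ratio of ilp1-1 to Col-0 means for H3.1 went from 0.92 to 1.12 at 16 h, and from 0.91 to 1.06 at 30 h. At 8 h the Col-0 mean was 1.52 times its 0 h value and the ilp1-1 mean 0.640 times. The 8 H4 genes summed to 518 ± 28 FPKM (SD, n = 2) at 0 h and 743 ± 20.1 at 8 h in Col-0, but to 680.2 ± 61 and 439 ± 1.1 in ilp1-1. The 9 H2B genes went from 382 ± 9.0 to 536 ± 7.4 FPKM in Col-0 and from 403 ± 33 to 291 ± 7.4 in ilp1-1. The 6 H2A genes, which mix variants, stayed between 225 and 278 FPKM in the Col-0 means, and went from 233 ± 12 to 151 ± 2.9 in ilp1-1. Both H1 genes together stood at 8 h at 0.610 of the 0 h value in Col-0 and at 0.452 in ilp1-1. The 2 H3.3 genes stood at 0.853 and 0.672 of their 0 h values at 8 h. These sums carry no test. The ratio of ilp1-1 to Col-0 for all 37 genes was 1.16 at 0 h, 0.718 at 4 h and 0.624 at 8 h, and it was 0.837 at 16 h and 0.815 at 30 h. With libraries scaled by total reads, the ratios at 0, 4 and 8 h kept their direction (1.25, 0.805 and 0.668), while those at 16 and 30 h came to 1.02 and 0.956.

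**Figure D1:**
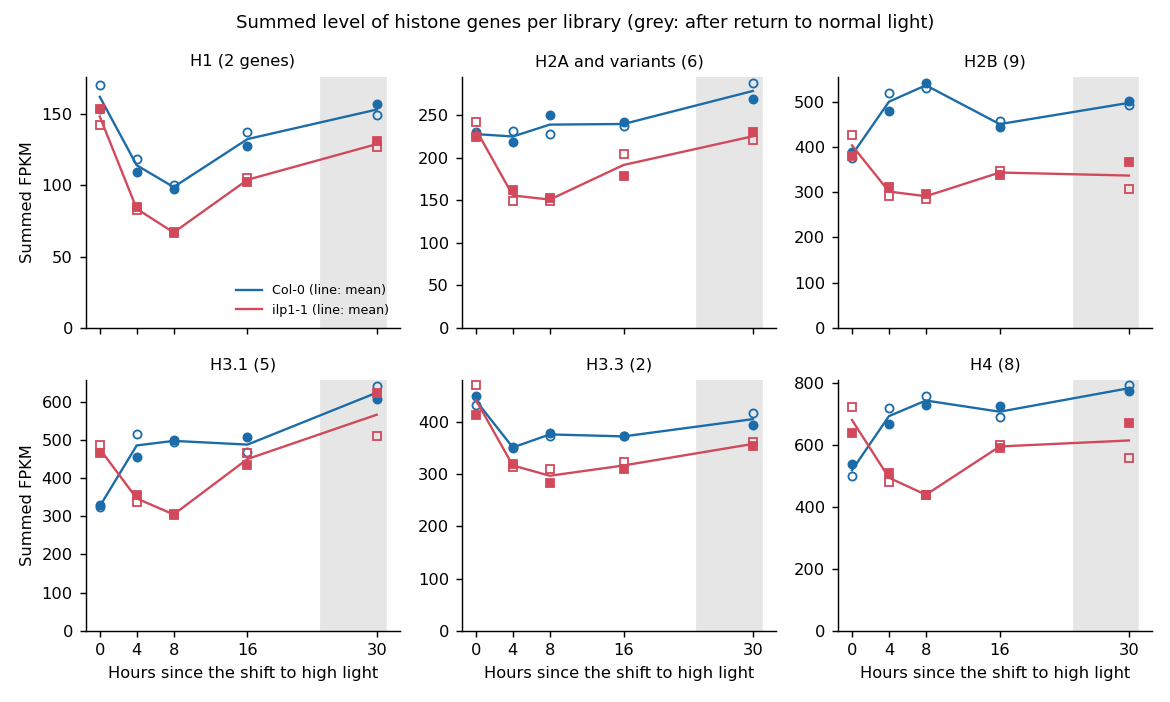
Summed FPKM of histone genes by class or variant (vertical axis) against hours since the shift to high light (horizontal axis), with 1 filled and 1 open point for libraries 1 and 2 of each group and lines through the means. For H3.1 and H4 the genotypes cross between 0 and 4 h, while for H1 and H3.3 both genotypes are lower at 4 and 8 h than at 0 h.

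Gene by gene, tests used limma on log2(FPKM + 1) over 19311 genes, and a gene was called at a Benjamini-Hochberg adjusted p under 0.05. In Col-0, 17 of the 34 tested histone genes were higher and 6 lower at 4 h than at 0 h, where 22.6% of all tested genes were higher and 23.5% lower. At 8 h the counts were 17 and 6 (all genes 24.9% and 25.1%). They were 15 and 3 at 16 h (22.2% and 19.8%), and 18 and 4 at 30 h (20.8% and 19.7%). The median log2 change of the 34 genes in Col-0 was 0.31 at 8 h, against -0.027 over all tested genes. At each hour the share of histone genes that rose in Col-0 was above that of all genes. The hours share the same 0 h libraries, so they are not separate results. Without 1 library the counts at 16 h fell most: without Col-0 0 h replicate 2, 9 genes were higher and 2 lower, and without Col-0 16 h replicate 1, 10 were higher and 2 lower.

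The same test in ilp1-1 gave the opposite balance at 4 and 8 h. At 4 h, 2 histone genes were higher and 23 lower than at 0 h (all genes 20.6% and 20.4%), and at 8 h 1 was higher and 26 lower (23.8% and 23.2%). The median log2 change at 8 h was -0.62, against -0.016 over all tested genes. By 16 h no gene was higher and 8 were lower (21.7% and 22.1% of all genes), a share of the histone genes near that of all genes that fell. After the return to normal light, 6 were higher and 11 lower (27.6% and 24.5%). The late counts in ilp1-1 depend on the scaling: by total reads, 3 were higher and 3 lower at 16 h, and 14 higher and 5 lower at 30 h. The shares of all genes under that scaling are not given here. These late counts also rest on single libraries. Without ilp1-1 0 h replicate 2, 3 genes were lower at 16 h, and 3 were higher and 5 lower at 30 h, and without ilp1-1 16 h replicate 1, 4 were lower at 16 h.

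Between genotypes at the same hour, 10 histone genes were higher and 3 lower in ilp1-1 at 0 h, before the shift (all genes 10.0% and 12.2%). At 4 h 1 was higher and 24 lower (14.7% and 15.8%), and at 8 h none was higher and 27 were lower (14.3% and 15.2%). At 16 h none was higher and 11 were lower (11.0% and 16.7%), and at 30 h none was higher and 15 were lower (17.2% and 16.8%). Averaged over the 5 hours, 1 was higher and 27 lower (29.3% and 27.8%). By total reads the splits were 14 higher and 2 lower at 0 h, 1 and 3 at 16 h, and 3 and 5 at 30 h, while 18 and 25 genes stayed lower at 4 and 8 h. The shares of all genes above are for the deposited scaling and are not given for total reads. The count at 0 h was 5 higher and 2 lower without Col-0 0 h replicate 2, and the same without ilp1-1 0 h replicate 2. At 30 h it was 1 higher and 9 lower without ilp1-1 30 h replicate 2.

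The change from 0 h was tested for a difference between the genotypes. At 4 h 1 gene had a higher and 20 a lower change in ilp1-1 (all genes 4.22% and 5.12%). Lower changes were called for 22 genes at 8 h, 16 at 16 h and 15 at 30 h, and higher ones for none, against 6.78%, 9.59% and 9.19% of all genes lower and 6.49%, 4.6% and 7.65% higher. By total reads, 8 lower changes were called at 16 h and 12 at 30 h. The shares of all genes under that scaling are not given here. As deposited, the shares of histone genes with a lower change are above those of all genes at each hour. All hours are compared with the same 0 h libraries, so they are not separate results. The genotypes already differed at 0 h, and that gap enters each difference of change. At 4 h, 13 genes were called up in Col-0 and down in ilp1-1, and at 8 h 15 were (4 H3.1, 7 H4, 2 H2B and 2 H2A genes). All of them also passed the test of the difference. They were selected by opposite calls in the same fit, so that outcome was nearly fixed and is no further support. The share of all tested genes with such opposite calls was not counted, so these counts have no background beside them. Both calls held under every alternative for 7 of the 13 and 10 of the 15. At 4 h a call was lost in Col-0 for AT1G08880, AT3G53730 and AT5G22880, in ilp1-1 for AT3G45930 and AT3G54560, and in both for AT5G59970. At 8 h it was lost in Col-0 for AT1G08880, AT3G45930 and AT5G10390, and in ilp1-1 for AT1G07820 and AT5G10400. At 16 h the pattern was called for AT2G37470 alone, and at 30 h for 3 genes, and each of these lost a call by total reads. The 16 h change of AT2G37470 in ilp1-1 was then -0.067 (adjusted p = 0.534), against -0.30 as deposited, with adjusted p-values of 0.00731 to 0.534 over the alternatives. Without Col-0 4 h replicate 2, 14 lower changes and no higher one were called at 4 h, and at 16 h 10 lower changes were called without Col-0 0 h replicate 2 and again without ilp1-1 16 h replicate 1.

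**Figure D2:**
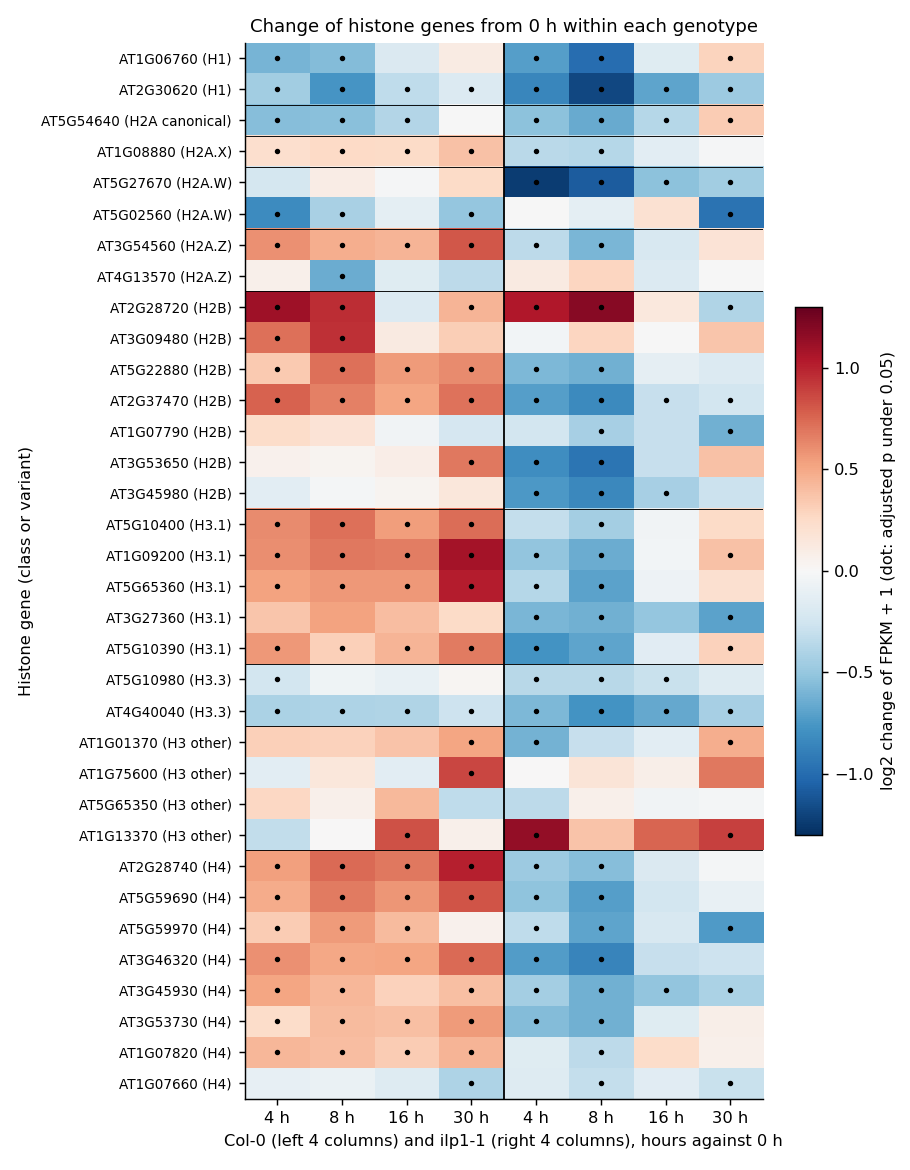
Log2 change of FPKM + 1 from 0 h (colour) for the 34 tested histone genes (rows, grouped by class or variant) at 4, 8, 16 and 30 h in Col-0 and ilp1-1 (columns), with a dot where the adjusted p is under 0.05. At 8 h, 15 rows are called up in Col-0 and down in ilp1-1, and the H1 and H3.3 rows are below 0 in both genotypes.

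The 5 H3.1 genes encode 1 and the same protein of 136 residues, and their coding bases are 80.3 to 89.5% alike between pairs. H3.1 is the H3 form laid down behind the replication fork. AT1G09200 stood at 94.3 and 95.4 FPKM at 0 h, 143 and 148 at 4 h, 156 and 151 at 8 h, 153 and 149.9 at 16 h and 194 and 209 at 30 h in Col-0. In ilp1-1 it stood at 141 and 140.0 FPKM at 0 h, 97.6 and 98.4 at 4 h, 91.6 and 87.5 at 8 h, 131 and 144 at 16 h and 201 and 165 at 30 h. In Col-0 all later libraries were above both 0 h libraries, whereas in ilp1-1 those of 4 and 8 h were below; between genotypes the libraries separate at 0, 4, 8 and 16 h, with ilp1-1 the higher at 0 h, and overlap at 30 h. The log2 change at 8 h was 0.69 (SE 0.077, adjusted p = 1.80e-06) in Col-0 and -0.64 (SE 0.077, adjusted p = 4.01e-06) in ilp1-1, and the difference was -1.33 (SE 0.11, adjusted p = 1.40e-06). At 0 h the gene was higher in ilp1-1 by 0.56 (SE 0.077, adjusted p = 9.68e-05). AT5G65360 and AT5G10390 also rose in Col-0 and fell in ilp1-1, with changes at 8 h of 0.57 and 0.31 in Col-0 and -0.69 and -0.68 in ilp1-1. The Col-0 call of AT5G10390 (adjusted p = 0.0384) was lost when any of the 4 Col-0 libraries of 0 and 8 h was left out, and its adjusted p ranged from 0.0126 to 0.202 over the alternatives. AT5G10400 rose by 0.72 (SE 0.13, adjusted p = 3.14e-04) in Col-0 and fell in ilp1-1, with -0.45 (SE 0.13, adjusted p = 0.0120), a call lost without ilp1-1 0 h replicate 2 (adjusted p = 0.0656) or ilp1-1 8 h replicate 1 (0.0719), with a range of 0.00802 to 0.0719. The fifth, AT3G27360, was the lowest of the group at 11.9 to 30.1 FPKM. It did not pass in Col-0 at any hour, and changed by -0.62 (SE 0.22, adjusted p = 0.0326) in ilp1-1 at 8 h, where its 0 h libraries stood far apart at 16.9 and 30.1 FPKM. That call was lost without ilp1-1 0 h replicate 2 (adjusted p = 0.451) and under 6 other alternatives, with a range of 0.00152 to 0.451. After the return to normal light, AT1G09200 and AT5G65360 reached their highest Col-0 levels, with log2 changes from 0 h of 1.08 (SE 0.077, adjusted p = 3.01e-08) and 1.02 (SE 0.091, adjusted p = 3.09e-07).

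All 8 H4 genes encode the same protein of 103 residues, and 7 of them rose in Col-0 at 4 and 8 h. HIS4 (AT2G28740) stood at 71.2 and 67.1 FPKM at 0 h, 93.7 and 107 at 4 h, 113 and 119 at 8 h, 114 and 109.9 at 16 h and 139.7 and 140.3 at 30 h in Col-0. In ilp1-1 its levels were 88.8 and 107 FPKM at 0 h, 72.9 and 67.5 at 4 h, 65.6 and 66.1 at 8 h, 87.3 and 83.7 at 16 h and 99.6 and 92.4 at 30 h. The genotypes did not overlap at any hour, with ilp1-1 above Col-0 at 0 h and below it at 4, 8, 16 and 30 h. By total reads the genotype call of HIS4 at 16 h was lost (-0.11, adjusted p = 0.352). Its change at 8 h was 0.74 (SE 0.084, adjusted p = 2.26e-06) in Col-0, -0.56 (SE 0.084, adjusted p = 4.58e-05) in ilp1-1, and -1.29 (SE 0.12, adjusted p = 3.98e-06) for the difference. AT5G59690, the most abundant H4 gene, rose by 0.67 (SE 0.094, adjusted p = 1.95e-05) in Col-0 and fell in ilp1-1, where its log2 change was -0.72 (SE 0.094, adjusted p = 1.03e-05). The widest difference of change among H4 genes at 4 h was in AT3G46320, with a log2 change of 0.59 in Col-0 and -0.72 in ilp1-1. AT1G07660, the H4 gene with an intron in every RefSeq transcript model, was not called in Col-0 at 4 or 8 h. It stood at 43.1 and 36.4 FPKM at 0 h, 36.5 and 37.2 at 4 h, 34.6 and 40.4 at 8 h, 35.3 and 34.9 at 16 h and 30.4 and 29.1 at 30 h in Col-0 and at 31.8 and 37.4 FPKM at 0 h, 27.8 and 33.5 at 4 h, 26.6 and 28.7 at 8 h, 30.5 and 31.4 at 16 h and 29.4 and 26.6 at 30 h in ilp1-1. Its Col-0 libraries of 4 and 8 h overlapped those of 0 h and none of the later ones rose above the 0 h range, with log2 changes of -0.10 (SE 0.11, adjusted p = 0.473) at 4 h and -0.083 (SE 0.11, adjusted p = 0.562) at 8 h. Reads of near-identical copies could be split between them: AT3G45930 and AT3G46320 share an identical exonic run of 160 bases, AT1G07660 and AT1G07820 one of 137, and how reads that map to several genes were counted is not given in the sources used here.

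H2B genes differed among themselves. H2B.4 (AT2G37470) stood at 35.2 and 33.6 FPKM at 0 h, 62.8 and 56.1 at 4 h, 57.0 and 52.7 at 8 h, 53.1 and 46.3 at 16 h and 58.8 and 55.0 at 30 h in Col-0, and at 37.6 and 43.0 FPKM at 0 h, 23.4 and 24.9 at 4 h, 23.4 and 21.2 at 8 h, 32.4 and 32.6 at 16 h and 33.9 and 34.05 at 30 h in ilp1-1. All later Col-0 libraries were above and all later ilp1-1 libraries below those of 0 h. The log2 change at 8 h was 0.66 (SE 0.089, adjusted p = 1.49e-05) in Col-0 and -0.82 (SE 0.089, adjusted p = 1.33e-06) in ilp1-1. The difference of -1.48 (SE 0.13, adjusted p = 1.97e-06) was the widest among all 34 genes at that hour. HTB2 (AT5G22880) went from 119 and 122 FPKM at 0 h to 200.05 and 197 at 8 h in Col-0, and from 163 and 163 to 108 and 102 in ilp1-1. The groups of 0 and 8 h were apart in both genotypes, with log2 changes of 0.72 (SE 0.094, adjusted p = 1.09e-05) and -0.63 (SE 0.094, adjusted p = 4.33e-05). HTB9 (AT3G45980, H2B.6) and H2B.8 (AT3G53650) did not pass in Col-0 at 4, 8 or 16 h, with log2 changes of -0.026 and 0.034 at 8 h. In ilp1-1 both fell at 8 h, with -0.83 (SE 0.13, adjusted p = 5.39e-05) and -0.95 (SE 0.17, adjusted p = 1.90e-04). HTB1 (AT1G07790) fell in ilp1-1 at 8 h with -0.44 (SE 0.13, adjusted p = 0.00959), a call lost without ilp1-1 0 h replicate 2 (adjusted p = 0.0817) or ilp1-1 8 h replicate 2 (0.0539), with a range of 0.00600 to 0.0817, and its change in Col-0 was 0.18 (SE 0.13, adjusted p = 0.262). AT3G09480 was scarce, at 1.36 to 8.03 FPKM, and rose in Col-0 at 8 h with 0.95 (SE 0.27, adjusted p = 0.00725), a call lost without Col-0 8 h replicate 2 (adjusted p = 0.0679, range 0.00529 to 0.0679).

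H2B.3 (AT2G28720) rose early in both genotypes and was lower in ilp1-1 at every hour. It stood at 48.2 and 46.3 FPKM at 0 h, 104 and 101 at 4 h, 94.8 and 90.9 at 8 h, 40.0 and 43.6 at 16 h and 64.5 and 64.3 at 30 h in Col-0. In ilp1-1 it stood at 22.5 and 24.9 FPKM at 0 h, 51.6 and 48.2 at 4 h, 56.8 and 53.2 at 8 h, 28.7 and 23.8 at 16 h and 13.9 and 22.8 at 30 h. The genotypes never overlapped, and the 4 and 8 h libraries of each genotype were above all its others. At 8 h the gene rose by 0.96 (SE 0.15, adjusted p = 5.51e-05) in Col-0 and by 1.18 (SE 0.15, adjusted p = 6.74e-06) in ilp1-1, and the difference between these changes was 0.22 (SE 0.21, adjusted p = 0.554). The gap between genotypes was -0.97 (SE 0.15, adjusted p = 2.54e-04) at 0 h and -1.80 (SE 0.15, adjusted p = 1.85e-07) at 30 h. Among the 34 genes it is the only one called up in both genotypes at 4 h, and again at 8 h. It lies 1536 bases from HIS4 on chromosome 2, which rose in Col-0 and fell in ilp1-1.

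H2A genes differed by variant. HTA11 (AT3G54560), an H2A.Z gene, stood at 25.6 and 21.6 FPKM at 0 h, 33.7 and 38.6 at 4 h, 32.3 and 33.8 at 8 h, 33.9 and 30.7 at 16 h and 42.1 and 42.0 at 30 h in Col-0. Its ilp1-1 levels were 30.9 and 29.3 FPKM at 0 h, 23.1 and 24.1 at 4 h, 19.6 and 19.7 at 8 h, 23.0 and 29.1 at 16 h and 37.5 and 31.3 at 30 h. As for H3.1, all later Col-0 libraries were above those of 0 h, and in ilp1-1 those of 4 and 8 h were below. The changes at 8 h were 0.47 (SE 0.12, adjusted p = 0.00273) in Col-0 and -0.59 (SE 0.12, adjusted p = 5.08e-04) in ilp1-1. H2AXA (AT1G08880), an H2A.X gene, changed by 0.26 (SE 0.075, adjusted p = 0.00830) and -0.37 (SE 0.075, adjusted p = 6.95e-04); its Col-0 call at 8 h was lost without Col-0 8 h replicate 1 (adjusted p = 0.121, range over the alternatives 0.00143 to 0.121). HTA7 (AT5G27670), an H2A.W gene, did not pass in Col-0 at any hour (0.099, SE 0.11, adjusted p = 0.492 at 8 h). In ilp1-1 it stood at 60.2 and 73.4 FPKM at 0 h, 29.1 and 26.5 at 4 h, 31.4 and 30.3 at 8 h, 41.4 and 49.98 at 16 h and 52.3 and 44.9 at 30 h. There, all libraries of 4 and 8 h lay well under those of 0 h, with -1.23 (SE 0.11, adjusted p = 3.20e-07) at 4 h, the largest fall of any of the 34 genes in ilp1-1 at that hour. HTA12 (AT5G02560), also H2A.W, instead fell in Col-0 at 4 h (-0.82, SE 0.17, adjusted p = 8.88e-04) while its change in ilp1-1 was -0.0086 (SE 0.17, adjusted p = 0.978). RAT5 (AT5G54640), the canonical H2A gene HTA1, fell in both genotypes at 8 h, with -0.54 (SE 0.12, adjusted p = 0.00150) and -0.65 (SE 0.12, adjusted p = 3.31e-04). HTA12 overlaps AT5G02570 on the other strand, and that gene was at 0.

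HTA4 (AT4G13570), an H2A.Z gene with few reads, was lower in ilp1-1 at all 5 hours. It stood at 3.37 and 3.35 FPKM at 0 h, 2.99 and 4.22 at 4 h, 1.39 and 2.24 at 8 h, 3.46 and 2.40 at 16 h and 2.66 and 2.25 at 30 h in Col-0, and at 0.703 and 0.350 FPKM at 0 h, 0.748 and 0.537 at 4 h, 0.858 and 0.827 at 8 h, 0.423 and 0.266 at 16 h and 0.661 and 0.372 at 30 h in ilp1-1. Every ilp1-1 library was below every Col-0 library. All ilp1-1 libraries were also under 1 FPKM, so HTA4 passed the filter only through Col-0, where it is high. A gene as low in both genotypes would not have been tested. The reads behind these values ran from 3 to 43 per library. The log2 difference of ilp1-1 from Col-0 was -1.52 (SE 0.21, adjusted p = 9.71e-05) at 0 h and -1.54 (SE 0.21, adjusted p = 4.91e-05) at 16 h. At 8 h it was -0.60 (SE 0.21, adjusted p = 0.0436), a call lost under 7 of 11 alternatives, among them a pseudocount of 0.1 (adjusted p = 0.0622) and without Col-0 8 h replicate 2 (0.325), ilp1-1 8 h replicate 1 (0.123) or ilp1-1 8 h replicate 2 (0.145), with a range of 0.0298 to 0.325 over the alternatives. The pseudocount of 1 understates fold changes at such low levels. MIR841A lies within HTA4 on the other strand, and whether counting used the strand is not given in the sources used here.

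**Figure D3:**
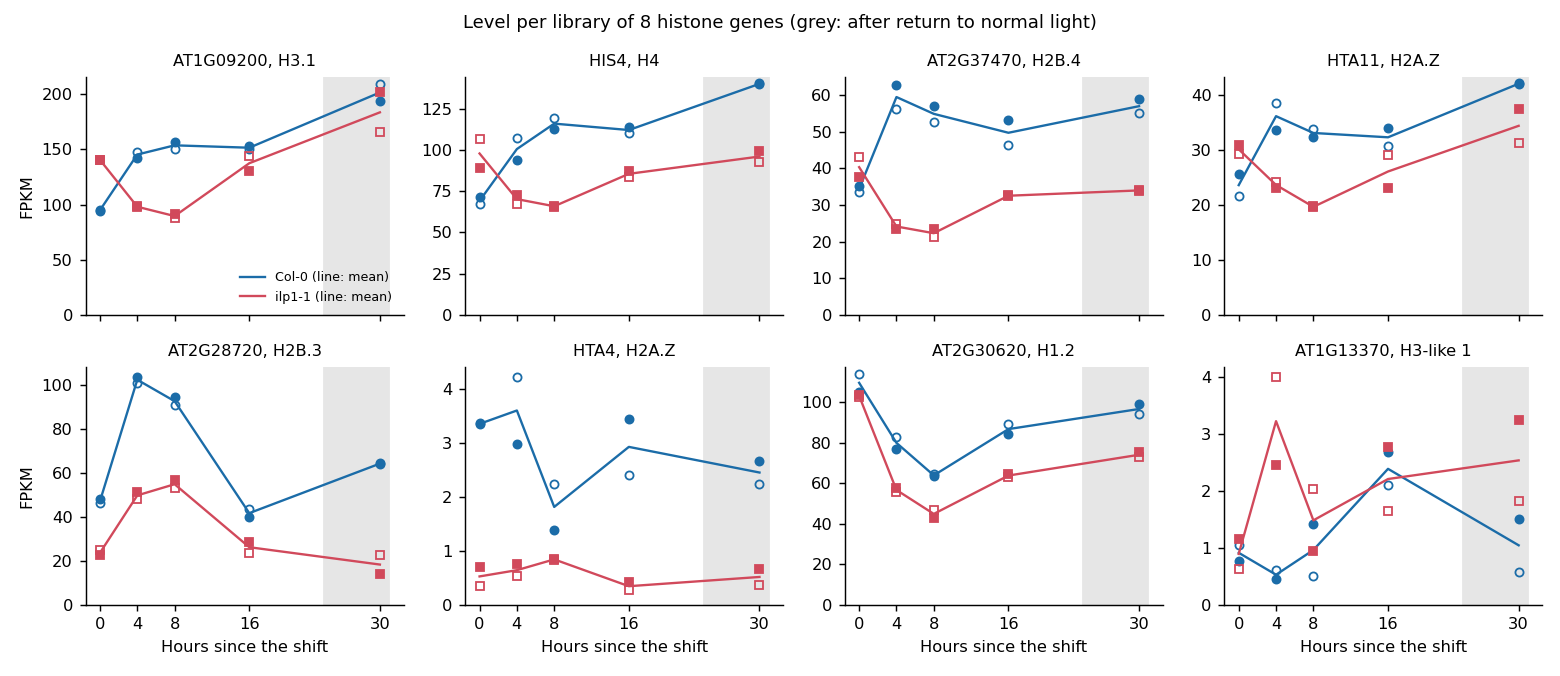
FPKM (vertical axis) of 8 histone genes against hours since the shift (horizontal axis), 1 filled and 1 open point for libraries 1 and 2 of each group, lines through the means. AT1G09200, HIS4, AT2G37470 and HTA11 part in opposite directions by 4 h, AT2G28720 is higher at 4 and 8 h in both genotypes, HTA4 is lower in ilp1-1 at all 5 hours, AT2G30620 is lower at 4 and 8 h in both, and AT1G13370 is higher in ilp1-1 at 4 h.

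Both linker histone H1 genes fell in both genotypes at 8 h. H1.2 (AT2G30620) stood at 105 and 114 FPKM at 0 h, 77.1 and 82.7 at 4 h, 63.4 and 64.3 at 8 h, 84.3 and 89.1 at 16 h and 99.2 and 94.0 at 30 h in Col-0. In ilp1-1 it stood at 104 and 103 FPKM at 0 h, 57.8 and 55.5 at 4 h, 42.8 and 46.8 at 8 h, 64.7 and 62.8 at 16 h and 75.2 and 72.9 at 30 h. Every later library was below both 0 h libraries of its genotype, and the ilp1-1 libraries were the lower ones at 4, 8, 16 and 30 h. By total reads the genotype calls of H1.2 at 16 h (-0.16, adjusted p = 0.0845) and 30 h (-0.15, adjusted p = 0.0895) were lost. The change at 8 h was -0.77 (SE 0.065, adjusted p = 7.38e-08) in Col-0 and -1.18 (SE 0.065, adjusted p = 6.21e-10) in ilp1-1, and the difference was -0.42 (SE 0.092, adjusted p = 0.00661). H1.1 (AT1G06760) fell by 0.57 and 0.99 on the log2 scale at 8 h, and its libraries stood at 48.1 and 56.7 FPKM at 0 h and 57.8 and 55.0 at 30 h in Col-0, and 50.02 and 40.0 FPKM at 0 h and 55.7 and 53.9 at 30 h in ilp1-1. The H1.3 gene HIS1-3 (AT2G18050), which lies outside the rule and is known to respond to stress, stood at 8.999 ± 0.48 FPKM (SD, n = 2) in Col-0 and 2.36 ± 0.29 in ilp1-1 at 0 h. It fell in Col-0 by 8 h (-1.65, SE 0.28, adjusted p = 1.21e-04). The fall in ilp1-1 (-0.88, SE 0.28, adjusted p = 0.0154) rests on single libraries: without ilp1-1 8 h replicate 2 it was -0.51 (adjusted p = 0.206), and the call was also lost without ilp1-1 0 h replicate 2 and with the libraries of both hours alone (range over the alternatives 0.00436 to 0.206). Both rule genes for H1 overlap another gene on the other strand.

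H3.3 is the replacement form of H3 and differs from H3.1 at 4 of 136 residues. The 2 H3.3 genes of the rule encode the same protein and had the highest mean levels of all 37 genes (189 and 178 FPKM over the 20 libraries). AT4G40040 stood at 239.8 and 221 FPKM at 0 h, 171 and 175 at 4 h, 179 and 168 at 8 h, 176 and 174 at 16 h and 181 and 200.27 at 30 h in Col-0 and at 225 and 241 FPKM at 0 h, 151 and 159 at 4 h, 132 and 138 at 8 h, 145 and 147 at 16 h and 168 and 178 at 30 h in ilp1-1. All later libraries of both genotypes were below their 0 h libraries. It changed by -0.40 (SE 0.063, adjusted p = 6.52e-05) in Col-0 at 8 h and by -0.78 (SE 0.063, adjusted p = 5.20e-08) in ilp1-1. AT5G10980 did not pass in Col-0 at 8 h (-0.057, SE 0.081, adjusted p = 0.596) and fell in ilp1-1 (-0.36, SE 0.081, adjusted p = 0.00156), a call lost with the ilp1-1 0 h and 8 h libraries alone (adjusted p = 0.0760, range over the alternatives 5.68e-05 to 0.0760). The third H3.3 gene, AT4G40030, lies outside the rule and 42 bases from AT4G40040, and fell in ilp1-1 at 8 h (-0.75, SE 0.060, adjusted p = 4.62e-08). Its change in Col-0 (-0.23, SE 0.060, adjusted p = 0.00419) was -0.15 (adjusted p = 0.0833) without Col-0 8 h replicate 2, and the call was also lost with the Col-0 0 h and 8 h libraries alone (range over the alternatives 0.00148 to 0.0833).

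The other 5 H3 genes were scarce. HTR12, the centromeric H3 that marks the site of kinetochore assembly, stood at 2.00 and 2.22 FPKM at 0 h, 2.91 and 2.79 at 4 h, 2.73 and 2.91 at 8 h, 2.14 and 4.14 at 16 h and 3.45 and 3.42 at 30 h in Col-0. In ilp1-1 it stood at 3.21 and 2.94 FPKM at 0 h, 1.70 and 1.60 at 4 h, 2.40 and 2.20 at 8 h, 2.85 and 2.54 at 16 h and 4.97 and 4.33 at 30 h. In ilp1-1 the 4 h libraries were the lowest and the 30 h libraries the highest, while in Col-0 the 2 libraries of 16 h were far apart. The fall in ilp1-1 at 4 h was -0.62 (SE 0.18, adjusted p = 0.0118), a call lost without ilp1-1 0 h replicate 1 (adjusted p = 0.0655) or ilp1-1 4 h replicate 2 (0.0616), with a range of 0.00863 to 0.0655. AT1G13370 (H3-like 1) was the one histone gene higher in ilp1-1 at 4 h, at 2.45 and 4.00 FPKM against 0.450 and 0.605 (1.44, SE 0.32, adjusted p = 0.00276). HTR11 (AT5G65350, H3-like 5) stood at 3.15 to 8.12 FPKM and passed in no comparison. It lies 33 bases from the H3.1 gene AT5G65360. AT1G75600 (H3-like 3) reached 1 FPKM only in replicate 1 of the 30 h groups, with 1.92 FPKM in Col-0 and 1.11 in ilp1-1. It was thus tested only through the hour at which it was high, so its 1 call is no independent support. This call was for a higher level at 30 h in Col-0 (0.87, SE 0.31, adjusted p = 0.0344). That call was lost under 6 of 12 alternatives, with 0.34 (adjusted p = 0.447) without Col-0 30 h replicate 1 and a range of 0.00241 to 0.447. AT5G12910 was not tested.

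**Figure D4:**
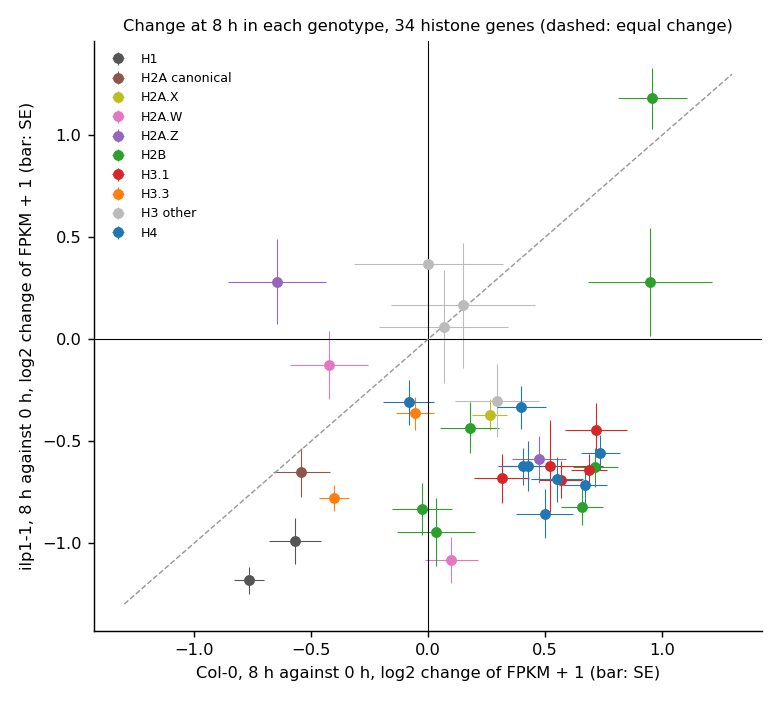
Log2 change of FPKM + 1 from 0 to 8 h in Col-0 (horizontal axis) and ilp1-1 (vertical axis) for the 34 tested histone genes, coloured by class or variant, with bars of 1 standard error. The H3.1 genes and 7 of the 8 H4 genes lie to the lower right, H1 and H3.3 genes to the lower left with AT1G07660 of H4, and the H2B.3 gene AT2G28720 alone at the upper right with both calls.

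The balance between variants differed between hours. Of the summed FPKM of H3.1 and H3.3 genes (with AT4G40030), H3.1 made up 32.2 and 32.6% at 0 h, 43.3 and 46.5 at 4 h, 45.6 and 46.6 at 8 h, 46.4 and 45.1 at 16 h and 53.4 and 53.4 at 30 h in Col-0. In ilp1-1 it made up 40.5 and 39.3% at 0 h, 40.4 and 39.2 at 4 h, 40.4 and 39.3 at 8 h, 48.0 and 49.0 at 16 h and 56.3 and 51.3 at 30 h. The share was higher in ilp1-1 at 0 h, higher in Col-0 at 4 and 8 h, where the ilp1-1 libraries lay within or next to their 0 h range, higher in ilp1-1 again at 16 h, and overlapped at 30 h. The H2A.W share of all H2A was 18.2 ± 0.22% (SD, n = 2) in Col-0 and 23.0 ± 1.0% in ilp1-1 before the shift. After 8 h it was 21.4 ± 0.036% in Col-0 and 18.8 ± 0.92% in ilp1-1, and after 30 h 25.8 ± 1.3% and 23.7 ± 2.2%. The 30 h libraries of both genotypes overlapped, and in ilp1-1 those of 30 h overlapped those of 0 h. H2A.Z went from 20.4 ± 0.31% to 24.5 ± 0.64% in ilp1-1 from 0 to 8 h and from 21.7 ± 0.78% to 19.5 ± 0.31% in Col-0, and at 30 h it was 20.9 ± 0.95% and 19.5 ± 1.3%. The summed level of the 4 H2A.Z genes varied least of all families, by 1.18 times between the lowest and highest of the 10 group means. Most of this sum was 1 gene, HTA9 (AT1G52740), with group means of 118 to 145 FPKM in a sum of 163 to 191. The other H2A.Z genes varied more. HTA11 and HTA4 are described above, and the change of AT2G38810 at 4 h was lower in ilp1-1 by 1.04 on the log2 scale (adjusted p = 0.011). Shares within a library do not depend on how libraries are scaled.

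**Figure D5:**
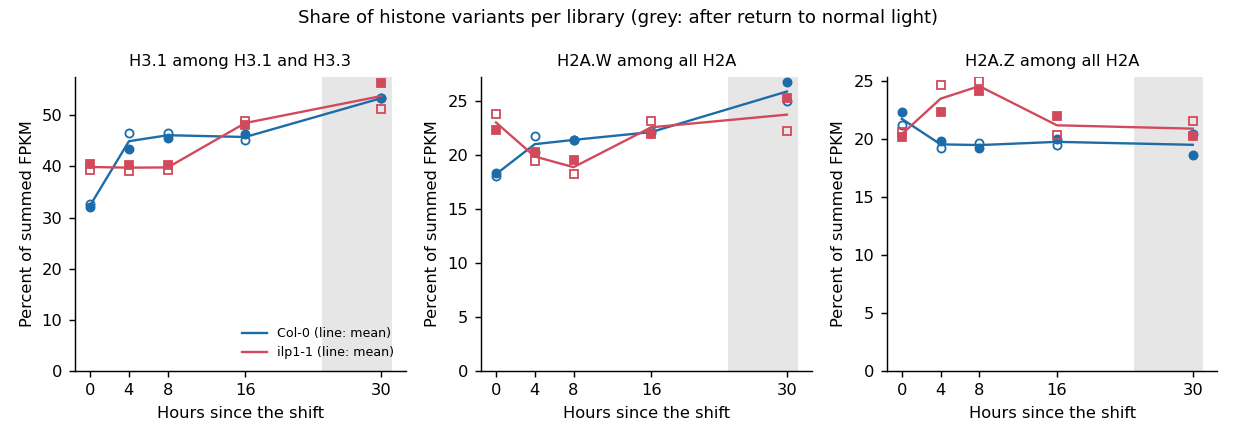
Percent of summed FPKM (vertical axis) made up by H3.1 among H3.1 and H3.3, and by H2A.W and H2A.Z among all H2A genes, against hours since the shift (horizontal axis), with 1 filled and 1 open point for libraries 1 and 2 of each group and lines through the means. The H3.1 share is higher in Col-0 at 4 h than at 0 h and level in ilp1-1 until 8 h, and the H2A.Z share is higher in ilp1-1 at 4 and 8 h.

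RefSeq annotates no intron in any transcript model of 21 histone genes, an intron in every model of 14, and an intron in 1 of 2 models of the H4 genes AT1G07820 and AT5G59970. Genes without an intron are the 5 H3.1, the 9 H2B, 5 H4 and 2 other H3 genes. Of the 18 that were tested, 13 were higher and 0 lower in Col-0 at 8 h (all genes 24.9% and 25.1%), with a median log2 change of 0.54. Of the 14 with an intron in every model, 2 were higher and 6 lower, with a median of -0.070. In ilp1-1 the counts at 8 h were 1 higher and 15 lower without an intron (median -0.63), and 0 and 9 with one in every model (median -0.37), against 23.8% and 23.2% of all genes. AT1G07820 and AT5G59970 were both called up in Col-0 and down in ilp1-1, and the fall of AT1G07820 was lost by total reads (adjusted p = 0.0639, range over the alternatives 0.0165 to 0.101) and without ilp1-1 0 h replicate 1, 0 h replicate 2 or 8 h replicate 2. The difference between genotypes in the change at 8 h was called lower for 15 of 18, 5 of 14 and both of the remaining genes, against 6.78% of all genes. No test compared these groups with each other, and they differ in the histone classes they hold.

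The 12 histone genes outside the rule, 11 of them tested, had 6 higher and 2 lower in Col-0 at 8 h, and 0 higher and 9 lower in ilp1-1 (all genes 24.9% and 25.1%, and 23.8% and 23.2%). HTA6 (AT5G59870), an H2A.W gene, had the widest difference of change among them, with 0.75 (SE 0.11, adjusted p = 3.96e-05) in Col-0 and -0.69 (SE 0.11, adjusted p = 9.96e-05) in ilp1-1. The H2A.Z gene HTA9 (AT1G52740) had changes of -0.093 (SE 0.079, adjusted p = 0.356) and -0.21 (SE 0.079, adjusted p = 0.0405). The second, counted among the lower ones, lost its call under 6 of 11 alternatives, with -0.14 (adjusted p = 0.164) by total reads (range 0.0401 to 0.226). MGH3, the H3 gene of male gametes, was at 0 in all 20 libraries. Of the 3 enzyme rows, AT1G21920 (SET7/9 family) fell most, from 30.1 ± 0.37 to 5.90 ± 1.2 FPKM (SD, n = 2) in Col-0 (-2.18, SE 0.16, adjusted p = 1.29e-08) and from 11.7 ± 0.70 to 4.28 ± 0.24 in ilp1-1 (-1.26, SE 0.16, adjusted p = 6.64e-06). The putative H2A deubiquitinase AT3G07565 fell in Col-0 at 8 h (-0.66, SE 0.14, adjusted p = 9.76e-04) and its change in ilp1-1 was -0.14 (SE 0.14, adjusted p = 0.454). The third, AT1G77660, did not pass, with -0.51 (SE 0.21, adjusted p = 0.0520) and -0.47 (SE 0.21, adjusted p = 0.0758).

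Genes that handle histones, copy DNA or act in mitosis were counted in the same tests. Of 20 histone chaperones and exchange factors, 5 rose and 3 fell in Col-0 at 8 h, and 6 rose and 1 fell in ilp1-1. The shares that rose are near those of all genes (24.9% in Col-0 and 23.8% in ilp1-1), and those that fell compare with 25.1% and 23.2%. The chaperones NRP1 and NRP2, which bind H2A and H2B, rose in both: NRP1 by 1.49 (adjusted p = 7.87e-09) in Col-0 and 1.46 (adjusted p = 1.06e-08) in ilp1-1, NRP2 by 1.42 (adjusted p = 7.46e-09) and 1.40 (adjusted p = 9.65e-09). Of 24 DNA replication genes, 11 were higher and none lower in ilp1-1 at 0 h, where 10.0% of all genes were higher and 12.2% lower. At 8 h 5 were higher and none lower, against 14.3% and 15.2% of all genes. From 0 to 8 h, 5 of the 24 rose and 1 fell in Col-0, and 1 rose and 2 fell in ilp1-1, which for the rises in Col-0 is near the share of all genes given above. Of 15 mitosis genes, 14 were tested, and 7 rose in Col-0 at 8 h and 1 in ilp1-1, with none lower in either. The mitotic kinase gene CDKB2;1 rose by 1.099 (adjusted p = 1.83e-04) in Col-0 and was lower in ilp1-1 at 8 h, with -0.93 (adjusted p = 0.00199).

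Library depth ran from 11387202 to 18951402 recovered reads. The 4 ilp1-1 libraries of 4 and 8 h, in which most of the falls were called, also held more reads of plastid-encoded genes (0.0995 to 0.453% of reads against 0.0188 to 0.0349% in the other 16 libraries), whose part in the result was not tested. With those 4 libraries left out, 1 histone gene was higher and 15 were lower in the mean genotype difference. The 1 higher gene is not the one called with all libraries, AT1G13370, which lost its call (0.23, adjusted p = 0.312). Summed markers of other cells also differed between the genotypes at 8 h. The 4 shoot meristem markers (STM, WUS, CLV3 and KNAT1) summed to 3.46 to 3.58 FPKM in Col-0 at 8 h and 1.42 to 1.62 in ilp1-1, and at 0 h to 4.61 to 5.75 and 1.495 to 5.87. The 4 stomatal lineage markers (SPCH, MUTE, FAMA and MYB60) summed to 14.3 to 14.6 FPKM in Col-0 and 18.5 to 19.6 in ilp1-1 at 8 h. The 3 mesophyll markers (RBCS1A, LHCB1.1 and RCA) summed to 22590 to 22750 and 19910 to 21120 FPKM at 8 h, and to 29920 to 31270 and 14420 to 15720 at 30 h. Single markers did not all follow their sum at 8 h. RBCS1A, which makes up most of the mesophyll sum, and RCA were lower in ilp1-1. LHCB1.1 stood at 236 and 234 FPKM in Col-0 and 587 and 587 in ilp1-1. In Col-0 group means, LHCB1.1 went from 7821.5 FPKM at 0 h to 235 at 8 h, 41.4 at 16 h and 4178 at 30 h. From 0 to 8 h RCA went from 5160 to 1968 and RBCS1A from 19978 to 20463. LHCB1.1 and RCA thus changed strongly over the hours within 1 genotype, so this sum is no plain measure of mesophyll share. FAMA and MUTE were higher in ilp1-1, and the libraries of SPCH and MYB60 overlapped. STM was lower in ilp1-1, the libraries of KNAT1 overlapped, and WUS and CLV3 were at or near 0. The part of these cells in the histone results was not tested. Pollen markers stayed at or below 0.260 FPKM.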

How the data were processed

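The authors deposited 10 tables of FPKM values, 1 for each genotype and time, for 33104 genes with gene length. The submitters' processing notes name TAIR10 as build, HISAT2 (2.0.5) and featureCounts (1.5.0-p3). Strand setting, treatment of multi-mapped reads and the FPKM software were not given in the sources used here. Multiplying each deposited FPKM value by its gene length gave whole multiples of 1 step per library (tolerance 0.001 reads, 100% of values), from which reads per gene were recovered. Gene starts and ends equalled those of RefSeq TAIR10.1 for 99.951% of 32548 nuclear genes and all histone rows, so promoters were read from that genome.

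Values were tested as log2(FPKM + 1) for the 19311 genes with at least 1 FPKM in at least 2 libraries, with limma 3.58.1 in R 4.3.3 (10 group means, empirical Bayes with an intensity trend, Benjamini-Hochberg adjustment in each of 18 contrasts) and no replicate block. The replicate numbers do not pair libraries: 1 of 45 pairs of groups had a correlation of deviations above 0.1. Alternatives were a pseudocount of 0.1, no filter, scaling by total reads, limma-voom on recovered reads, no trend, the block, the compared groups alone, each library left out, and the mean genotype difference with 4 ilp1-1 libraries (4 and 8 h) left out. Class sums are sums of FPKM per library.

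Members, lists and motifs were chosen with earlier results of these data known. Every histone gene may be named with its levels. Changes are given for up to 4 called genes of a class or variant in a contrast, by smallest adjusted p, for genes without a call that are compared with them, and for genes described in every group.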

Additional observations from a re-analysis of the deposited data

Results flagged for a closer look

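The change from 0 h differed between Col-0 and ilp1-1, by limma's test of the difference, for 21 of 34 histone genes after 4 h. It differed for 22 after 8 h, for 16 after 16 h and for 15 at the last time, 30 h. All but 1 of these differences, at 4 h, were lower changes in ilp1-1. For the 15 genes called up in Col-0 and down in ilp1-1 at 8 h, the difference in log2 change at 8 h was as follows. Among H3.1 genes it was -1.33 for AT1G09200, -1.26 for AT5G65360, -1.16 for AT5G10400 and -0.998 for AT5G10390. The H4 genes had -1.39 for AT5G59690, -1.35 for AT3G46320, -1.29 for HIS4 (AT2G28740), -1.24 for AT5G59970, -1.05 for AT3G45930, -1.03 for AT3G53730 and -0.73 for AT1G07820. For H2B it was -1.48 for AT2G37470 and -1.34 for HTB2 (AT5G22880). For H2A it was -1.06 for HTA11 (AT3G54560) and -0.63 for H2AXA (AT1G08880). In each of these genes both Col-0 libraries of 8 h stood above those of 0 h, and both ilp1-1 libraries of 8 h stood below. The genes were selected by calls on these same libraries, so neither this separation nor the listed differences are independent support. How many of all tested genes had such opposite calls was not counted.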

How the results depend on the processing

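Counts of called histone genes (of 34) moved most with the late hours. Scaling by total reads gave 4 calls for the genotype difference at 16 h (11 as reported), 8 at 30 h (15), and 8 for the difference of change at 16 h (16). Fits of the compared groups alone gave 6 for the genotype difference at 0 h (13), 5 for the ilp1-1 change at 16 h (8) and 5 at 30 h (17), and a fit without trend gave 11 for the last. With the 4 libraries of ilp1-1 at 4 h and 8 h left out, 16 were called in the mean genotype difference (28). The causes were not tested, except that fewer libraries enter the last fits. With each library left out in turn, counts ran over 28 to 29 for the mean genotype difference. By hour the genotype difference gave 7 to 13 at 0 h, 20 to 22 at 4 h, 23 to 27 at 8 h, 8 to 9 at 16 h and 10 to 20 at 30 h. The Col-0 changes gave 17 to 21 at 4 h, 19 to 21 at 8 h, 11 to 17 at 16 h and 16 to 18 at 30 h. The ilp1-1 changes gave 20 to 22, 22 to 26, 3 to 11 and 8 to 16 at these hours, and the differences of change 14 to 21, 19 to 24, 10 to 19 and 11 to 19. With the replicate block, 28 were called in the mean difference, 11 at 0 h and 22 in the difference of change at 8 h; the replicate numbers pair nothing here, and the block moved no count by over 1.5 times. The direction of 7 single results turned, none past the threshold after the turn. By total reads these were the mean genotype differences of AT5G59690 (0.044, adjusted p = 0.403), GAMMA-H2AX (AT1G54690, 0.040, adjusted p = 0.514) and AT4G40030 (0.0072, adjusted p = 0.822), and the 16 h differences of AT4G40040 (0.020, adjusted p = 0.819) and HTA10 (AT1G51060, 0.013, adjusted p = 0.921). With the 4 libraries of ilp1-1 at 4 h and 8 h left out they were the mean differences of AT1G09200 (0.093, adjusted p = 0.131) and AT5G59690 (0.12, adjusted p = 0.114). Total-read scaling lifted the median of all genes in the mean genotype difference to 0.156. Counts under it cannot be read against the shares of all genes given for the deposited scaling. Of the histone calls in the genotype difference, 15 of 25 at 4 h and 23 of 27 at 8 h held under every alternative, and in the difference of change 14 of 21 and 18 of 22. With 2 libraries a group, the precision rests on the spread shared over all 10 groups, and genes of a few reads, such as HTA4 and AT1G13370, are limited by depth.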

Other observations

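HTA4 lies on chromosome 4 (7884516 to 7885982, plus strand, in the files' coordinates, TAIR10) among other genes that were lower in ilp1-1. They were looked up after HTA4's values were seen. UNE15, on its one side, stood at 3.48 FPKM in Col-0 and 0.772 in ilp1-1 at 0 h (group means, n = 2), with a mean log2 difference over the 5 hours of -1.08 (limma, adjusted p = 3.32e-09). The ilp1-1 group means of UNE15 ran from 0.627 to 0.999 FPKM, under the 1 FPKM of the filter. On the other side, AT4G13572 stood at 41.9 and 13.4 FPKM, with -1.89 (adjusted p = 1.74e-12). AT4G13575 stood at 41.6 and 8.67 FPKM, with -1.98 (adjusted p = 6.60e-12). The largest difference was in AT4G13577, at 85.0 and 2.41 FPKM, with -3.48 (adjusted p = 1.79e-12). These 4 genes and HTA4 were called lower in ilp1-1 at each of the 5 hours. The nearest tested genes beyond them are AT4G13550, before UNE15, and PAM71-HL (AT4G13590), after AT4G13577. They stood at 11.7 and 8.65 FPKM and at 59.9 and 58.9 FPKM at 0 h, and neither passed there. AT4G13550 passed neither in the mean (0.065, adjusted p = 0.397) nor in any other hour. Next to AT4G13550, AT4G13540 was lower in ilp1-1 in the mean (-0.22, adjusted p = 0.0233) and at 16 h (-0.64, adjusted p = 0.0105). Further out, AT4G13530 was called only at 4 h, higher in ilp1-1 (0.38, adjusted p = 0.0067), and SMAP1 in no genotype comparison. PAM71-HL was lower in ilp1-1 in the mean (-0.27, adjusted p = 3.39e-05), with calls for 16 and 30 h (-0.62 and -0.39). Between UNE15 and AT4G13577, MIR841A and the non-coding RNA gene AT4G06115 also had lower means (-0.61 and -1.06, both called). MIR841A was called in the 0 h comparison alone, and AT4G06115 in no single hour.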
